A study of Mus musculus with 8 samples.

Results

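Nanog, Oct4 (Pou5f1), Stella (Dppa3), Rhox5 and Spic were followed across 4 sorted fractions of mouse HV embryonic stem (ES) cells. These 5 genes are associated with pluripotency or the germline, and each was read by 1 probe of the 29484 probes tested on the arrays. They were picked by name from the study's own list of genes that differed among these 4 fractions, so they had been chosen by the same measurements in the same 8 samples. Their differences between fractions are therefore given as a description, and 1 count of calls between fractions, given further on, had its outcome set by that choice. The tests that are read concern the differences between the 2 clones, and even there a small spread between clones had helped a gene to enter that list.

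HV ES cells carry a knock-in at the Hex (Hhex) locus that places an internal ribosome entry site and the fluorescent protein Venus behind Hex, a homeobox gene of early endoderm. The parental line also makes the bacterial ligase BirA from ROSA26, in every sample. Cells grown with LIF were sorted on Venus (V) and on SSEA-1 (S), a carbohydrate antigen on the surface of undifferentiated mouse ES cells. Both Venus-negative fractions (V-S+ and V-S-) and both Venus-positive fractions (V+S+ and V+S-) came from 2 clones, named 5.1 and 16.1, which gives 2 samples per fraction, and no other genotype or treatment was compared. Fractions were assigned from the sample titles. The deposited design text names V-S+ in 2 places and V+S- in none, so the identity of the V+S- samples rests on those titles. Each clone is a single knock-in line, and its 4 fractions lay together on 1 slide, and the effects of clone and of slide cannot be told apart. Sample RNA was labelled with Cy3 and hybridised with Cy5-labelled RNA pooled from several mouse cell lines, with no dye swap. Values are log2 Cy3/Cy5, where 0 means the same signal as in the reference pool.

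Oct4 and Nanog encode homeodomain transcription factors that hold ES cells in an undifferentiated state. Oct4 is present in both the early epiblast and the nascent primitive endoderm (PrEn), whereas Nanog is switched off as PrEn forms. Stella is a maternal-effect protein that protects methylated DNA in the zygote, and it marks primordial germ cells. Rhox5 is a homeobox gene of the X-linked reproductive homeobox cluster, known from the testis and from extra-embryonic tissue. Spic encodes an Ets-family factor better known in macrophages of the spleen and detected in early embryos.

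The genes lie on 4 chromosomes of the GRCm38.p6 assembly. Nanog (chr6:122707489-122714633) and Stella (chr6:122626424-122630271) are close neighbours, 77217 bases apart. Oct4 lies at chr17:35506032-35510777, Spic at chr10:88675269-88683023 and Rhox5 at chrX:37754608-37808878. The array files place none of the probes on the genome, and no genome was used here to place them. Since the probe decides what a spot measures, the bases the files give are shown first, for Oct4 over all 60 bases and for the others over the first 30.
Nanog probe: tcttagaagcgtgggtcttggtatacactg
Oct4 probe: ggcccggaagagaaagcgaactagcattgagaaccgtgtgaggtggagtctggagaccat
Stella probe: taacctttaaattgtagataggatgcacaa
Rhox5 probe: ttcaagaattcagcaataaagaggtggatt
Spic probe: aatgtgggggagaccagcatagggccactt
The Oct4 probe held 1 forward reading frame without a stop codon, starting at its base 2. The Rhox5 probe also held 1, starting at base 3, and the Nanog, Stella and Spic probes held 0. RefSeq names 7 pseudogenes of Oct4, 2 of Nanog and 1 of Stella, and how far transcripts from these copies add to the signals was not tested.

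RefSeq gave promoter sequence for 4 of the 5 genes, all but Stella. The 100 bases directly before the most upstream annotated start are shown on the strand of the gene. Their part in the levels of the genes was not tested. Capitals mark matches to TTTGCAT (a core of the octamer bound by Oct4, without its first base), ACAATG (a Sox site), AGGTCA (a nuclear receptor half-site) or AGATAA (read by factors of the GATA family), all searched on both strands.
Nanog, chr6:122707389-122707488, plus strand: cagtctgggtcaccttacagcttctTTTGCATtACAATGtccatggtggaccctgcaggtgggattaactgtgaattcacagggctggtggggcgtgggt
Oct4, chr17:35505932-35506031, plus strand: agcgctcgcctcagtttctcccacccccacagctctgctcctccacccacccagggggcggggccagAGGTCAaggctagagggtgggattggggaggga
Rhox5, chrX:37754508-37754607, plus strand: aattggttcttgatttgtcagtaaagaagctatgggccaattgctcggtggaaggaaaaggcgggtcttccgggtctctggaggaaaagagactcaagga
Spic, chr10:88683024-88683123, minus strand: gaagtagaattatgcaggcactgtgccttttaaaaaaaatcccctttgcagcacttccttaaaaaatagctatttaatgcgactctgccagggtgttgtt
The Nanog stretch held this octamer core and the Sox site 1 base apart, beginning 75 and 67 bases before the start. The Oct4 stretch held AGGTCA, beginning 33 bases before the start. Neither the Rhox5 nor the Spic stretch held any of the 4 motifs. Over the 32851 stretches of the same length before annotated mouse starts, 1.49% held TTTGCAT, 4.27% ACAATG, 5.88% AGGTCA and 3.59% AGATAA. A match in these letters is a description of the sequence and was not measured as binding.

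In both clones, all 5 genes were lower in V+S- cells than in V-S+ cells, as were 37.9% of all probes. The 5 genes differed in where the lower level first appeared. Stella, Spic, Rhox5 and Nanog were already lower in V+S+, again in both clones, as were 35.4% of all probes. Oct4 was as high or higher in V+S+, and its lower level appeared between V+S+ and V+S-. Rhox5 was lowest in V+S+ and higher again in V+S-. None of the 5 had a mean more than 1.5-fold lower in V-S- cells than V-S+ cells. In sorted bulk RNA, fewer cells that express a gene and less RNA per cell cannot be told apart.

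**Figure D1:**
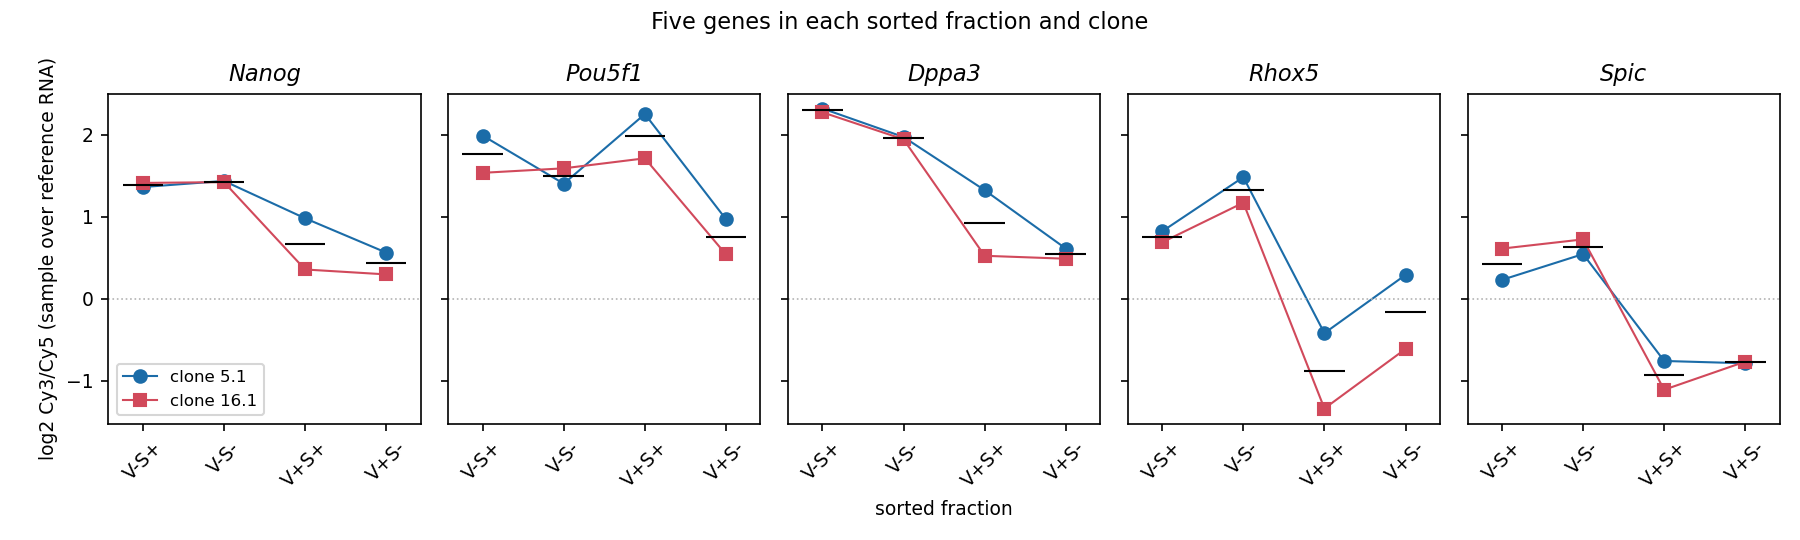
Log2 Cy3/Cy5 of each gene (vertical axis) in the 4 sorted fractions (horizontal axis), with 1 point per sample, circles for clone 5.1, squares for clone 16.1 and black bars for the mean of the 2 clones; lines only join samples of a clone. Stella and Spic were lower in both Venus-positive fractions, Oct4 was lowest in V+S-, and Rhox5 was lowest in V+S+.

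The V-S+ level of Nanog was 1.36 for clone 5.1 and 1.41 for clone 16.1. Its V-S- level was 1.44 and 1.42, in the same clone order. Its V+S+ level was 0.98 and 0.36, and its V+S- level 0.56 and 0.30. All 4 Venus-negative samples were thus above all 4 Venus-positive samples, whatever their SSEA-1. The choice of genes favoured such gaps, here and for the genes below, and their share over all probes was not counted. The V+S+ mean was lower than the V-S+ mean by a log2 difference of -0.72 (SE 0.20, limma, n = 2 clones), a fold of 1.65, made up of -0.38 in clone 5.1 and -1.06 in clone 16.1. From V+S+ to V+S- the further difference was -0.42 in clone 5.1 and -0.06 in clone 16.1. The first of these steps held 47.7% of the log2 difference between V-S+ and V+S- in clone 5.1 and 94.6% in clone 16.1.

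Stella stood highest in V-S+, at 2.32 in clone 5.1 and 2.28 in clone 16.1. The V-S- samples stood at 1.97 and 1.95, the V+S+ samples at 1.33 and 0.53, and the V+S- samples at 0.61 and 0.49. The groups of Venus-positive and Venus-negative samples did not overlap, and within the Venus-negative cells V-S- was a little lower, by -0.35 and -0.33. V+S+ differed from V-S+ by -0.996 in clone 5.1 and -1.75 in clone 16.1, a mean of -1.37 (SE 0.24) or 2.59-fold lower. V+S- differed from V-S+ by -1.75 on average (SE 0.24), 3.36-fold lower. The first step held 58.3% of the whole difference in clone 5.1 and 98.0% in clone 16.1.

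Spic stood at 0.23 in V-S+ of clone 5.1 and 0.61 in V-S+ of clone 16.1, and at 0.55 and 0.73 in V-S-. In V+S+ it stood at -0.76 and -1.11, and in V+S- at -0.79 and -0.77. Every Venus-negative sample lay above the reference pool and every Venus-positive sample below it. V+S+ was lower than V-S+ by -0.99 in clone 5.1 and -1.72 in clone 16.1, a mean of -1.36 (SE 0.16) or 2.56-fold. From V+S+ to V+S- the difference was only -0.03 in clone 5.1 and 0.34 in clone 16.1, so Spic was at its low level in V+S+ already. Spic was the dimmest of these probes, with Cy3 signals 2.64 to 9.40 times the local background. With the scanner software's processed signals, which differ in several processing steps, its mean difference was -2.01 in place of -1.36. Which step made the change was not tested.

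Rhox5 stood at 0.82 in V-S+ of clone 5.1 and 0.69 in V-S+ of clone 16.1. It was higher in V-S-, at 1.48 and 1.17. It was lowest in V+S+, at -0.42 and -1.34, and intermediate in V+S-, at 0.29 and -0.61. Within each clone the order of the fractions was the same, with V-S- highest, then V-S+, then V+S-, and V+S+ lowest, and Rhox5 alone of the 5 genes had this order in both clones. V+S+ was lower than V-S+ by -1.24 and -2.03, a mean of -1.63 (SE 0.38) or 3.11-fold. V+S- then exceeded V+S+ by 0.71 for clone 5.1 and 0.73 for clone 16.1. V-S- exceeded V-S+ by 0.66 and 0.48.

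Oct4 stood at 1.99 in V-S+ of clone 5.1 and 1.54 in V-S+ of clone 16.1. In V+S+ it stood at 2.25 and 1.71, in V-S- at 1.40 and 1.59, and in V+S- at 0.97 and 0.54. V+S+ was therefore higher than V-S+ in both clones, by 0.26 and 0.18, with a mean of 0.22 (SE 0.24, or 0.17 with clone as a replicate block). Between V+S+ and V+S- it was lower by -1.28 in clone 5.1 and -1.17 in clone 16.1, a mean of -1.23 (SE 0.24) or 2.34-fold. The V-S+ samples overlapped those of both V+S+ and V-S-, whose own levels did not overlap, and both V+S- samples lay below all 6 others. The loss of SSEA-1 without Venus went with a difference of -0.59 in clone 5.1 and 0.055 in clone 16.1.

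**Figure D2:**
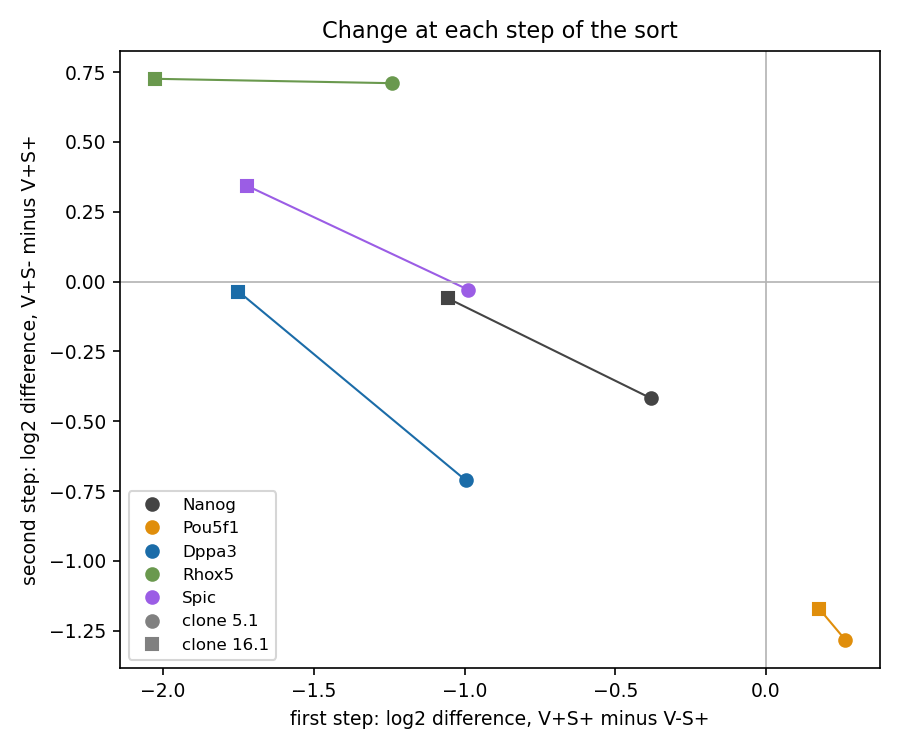
Each gene's log2 difference from V-S+ to V+S+ (horizontal axis) against its difference from V+S+ to V+S- (vertical axis), with circles for clone 5.1, squares for clone 16.1 and a line joining the clones. Stella, Spic and Rhox5 lay far to the left, Oct4 lay low and to the right of 0, and Rhox5 lay above 0 on the vertical axis at 0.71 and 0.73.

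Counted with a threshold of 1.5-fold lower in both clones, 3 of the 5 genes (Stella, Rhox5 and Spic) passed in V+S+ against V-S+, where 0.434% of all probes did. Nanog missed it with -0.38 in clone 5.1, against a log2 threshold of -0.58. In V-S- against V-S+, 0 of the 5 passed, beside 0.00339% of all probes. In V+S- against V-S+, 4 of the 5 passed, beside 1.43% of all probes, and Rhox5 missed it with -0.53 in clone 5.1. In V+S- against V+S+, Oct4 alone passed, beside 0.244% of all probes. In V+S- against V-S-, 4 of the 5 passed, beside 1.59% of all probes, and Oct4 missed it with -0.43 in clone 5.1. In the fit across all probes, all 5 were called in some pair of fractions at a false discovery rate (FDR) of 0.05 and over 1.5-fold, as were 8.98% of all probes. The genes came from a list made by such a test on these samples, which set that outcome, so the count of 5 is no evidence of a difference. Nothing is read from the other counts beyond which gene passed in which pair.

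The differences came from the sample channel. When each channel was normalised alone, the Cy3 intensity of the 5 genes ranged over 1.42 (Nanog) to 2.71 (Rhox5) on the log2 scale across the 8 samples. The Cy5 intensity of the common reference at the same spots ranged over 0.06 (Rhox5) to 0.33 (Nanog). The reference of Nanog was a little lower in the Venus-positive samples, and its V+S- mean was -1.22 below V-S+ from Cy3 alone, compared with -0.96 from the ratio. The 2 scans of an array differed by at most 0.16 for Spic and 0.08 for the other genes. No spot of these probes was saturated, and each was well above background in all 16 scanner files.

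**Figure D3:**
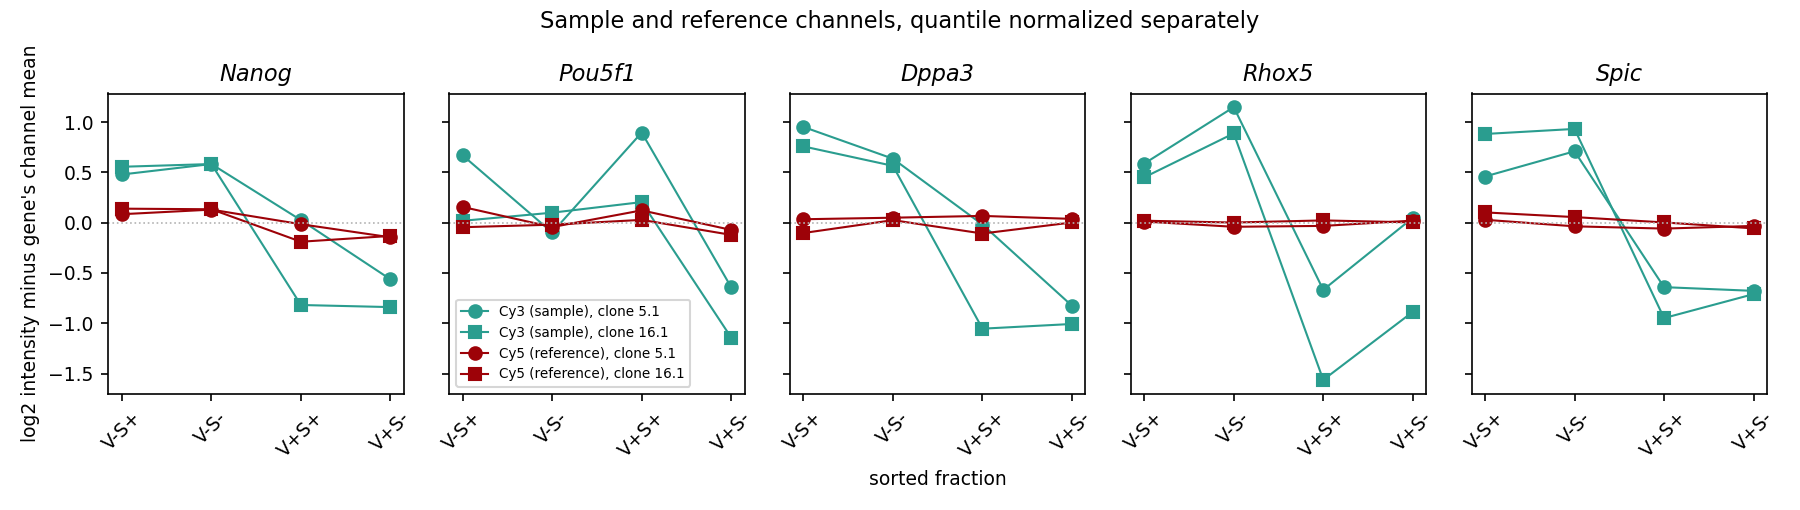
Cy3 (sample, green) and Cy5 (common reference, red) log2 intensity of each probe, normalised within each channel and shown as the deviation from that probe's channel mean over the 8 samples; circles are clone 5.1 and squares clone 16.1. The reference stayed within a range of 0.33 for every gene, and the sample channel moved by at least 1.42.

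The 2 clones were then compared, with the limit given above that selection had favoured genes with a small spread between clones. Clone 16.1 minus clone 5.1, fitted over all 4 fractions, was -0.21 for Nanog (SE 0.11, adjusted p = 0.195), -0.31 for Oct4 (SE 0.12, adjusted p = 0.0984) and -0.25 for Stella (SE 0.13, adjusted p = 0.200) by limma. For Spic it was 0.06 (SE 0.11, adjusted p = 0.741). Rhox5 was lower in clone 16.1 in all 4 fractions, by -0.57 on average (SE 0.14, limma adjusted p = 0.0285), which is past the FDR threshold but just under 1.5-fold. Across alternatives its adjusted p lay between 0.0159 and 0.124, and it was called at -0.71 without either V-S+ sample and at -0.65 without either V-S- sample. The clone difference of Oct4 became -0.47 (limma adjusted p = 0.00863) without either V-S- sample, still under 1.5-fold. So 0 of the 5 were called between clones at an FDR of 0.05 and 1.5-fold, beside 2.14% of all probes. At an unadjusted p under 0.05, 2 of the 5 (Oct4 and Rhox5) passed by limma, as did 11688 of the 29484 probes, a similar share.

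In V+S+, clone 16.1 was lower than clone 5.1 for all 5 genes, with 1 sample per clone. The differences were -0.62 for Nanog, -0.54 for Oct4, -0.80 for Stella, -0.92 for Rhox5 and -0.35 for Spic. The share of all probes lower in clone 16.1 there was not counted, so nothing is read from that direction. In V-S+ the corresponding differences ran from -0.45 (Oct4) to 0.38 (Spic), in V-S- from -0.31 (Rhox5) to 0.19 (Oct4) and in V+S- from -0.90 (Rhox5) to 0.02 (Spic). The SD of this clone difference over all probes was 0.30 for V+S+, 0.27 for V+S- and 0.19 for each Venus-negative fraction. An interaction term asked whether the change with Venus differed between the clones. For Rhox5 it was -0.69 (SE 0.08, limma adjusted p = 0.0128), so the lower level with Venus was deeper in clone 16.1, by -2.03 against -1.24 among SSEA-1-positive cells and by -1.78 against -1.19 among SSEA-1-negative cells. For the others the term was also negative, between -0.35 (Oct4) and -0.46 (Nanog), with adjusted p between 0.102 (Nanog) and 0.373 (Oct4), which does not show that the clones were alike. Thus 1 of the 5 was called, beside 3.79% of all probes.

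That call for Rhox5 did not hold in every setting. The adjusted p was 0.147 with the scanner software's processed signals and 0.258 with the authors' values, where the interaction itself was -0.72 and -0.69. It was 0.0972 without either V-S+ sample. Over all 17 alternatives it lay between 0.00489 and 0.258. Without either V+S- sample, when V+S+ alone carried the contrast, 4 of the 5 genes were called, beside 6.85% of all probes. The Venus-positive contrast then rested on 1 V+S+ sample per clone, with the spread taken from the other samples. The genes were Nanog (adjusted p = 0.0120), Stella (adjusted p = 0.00747), Spic (adjusted p = 0.0278) and Rhox5, all with limma. The corresponding term for SSEA-1 called 0 of the 5 genes and 0% of all probes by limma, where 252 probes had an unadjusted p under 0.05 and the 5 genes had p between 0.115 and 0.797.

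**Figure D4:**
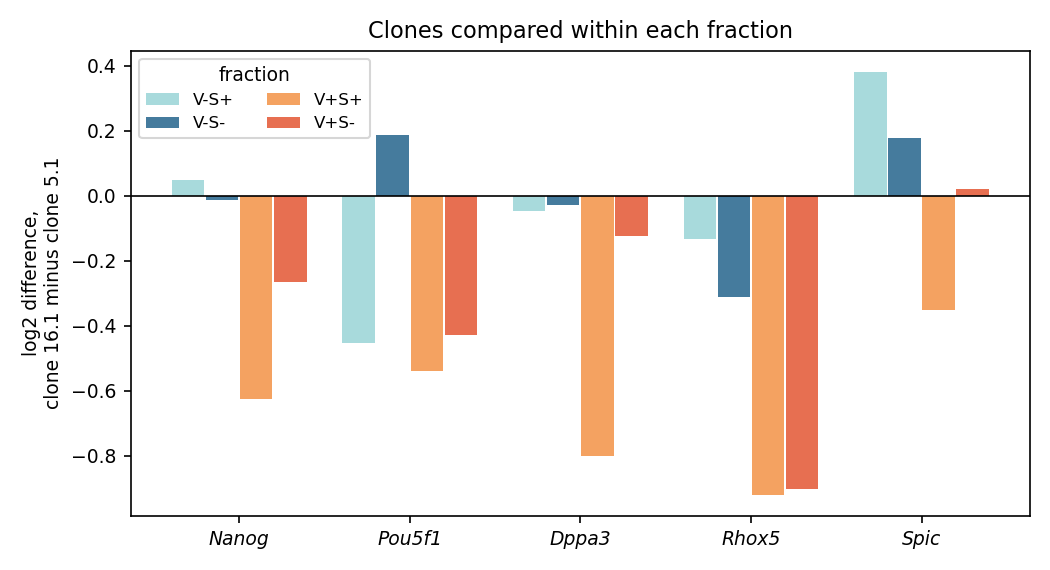
Log2 Cy3/Cy5 in clone 16.1 minus clone 5.1 (vertical axis) for each gene, with 1 bar per sorted fraction and each bar resting on 1 sample of each clone. In V+S+ all 5 bars lay below 0, from -0.35 (Spic) to -0.92 (Rhox5), and the share of all probes below 0 was not counted.

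Primitive endoderm markers moved with these differences. Of a list of 30 such genes, 13 had a named probe. In both clones all 13 were above V-S+ in V+S+, as were 39.7% of all probes, and in V+S-, as were 43.6%. In V+S+ their mean differences lay between 0.17 (Gata6) and 1.08 (Lrp2), with a median of 0.48. Their Cy3/Cy5 ratios summed to 10.0 in V-S+ of clone 5.1 and 11.6 in V-S+ of clone 16.1, to 8.23 and 9.71 in V-S-, to 15.8 and 22.6 in V+S+, and to 24.0 and 27.2 in V+S-. The 4 highest ratios held 67.8% to 79.0% of each sum, and Lrp2, Cited1 and Krt8, a receptor, a transcriptional coregulator and a keratin, were among them in every sample. The sum was larger in clone 16.1 in all 4 fractions. Over 1.5-fold higher in both clones were 4 of the 13 in V+S+ and 12 of the 13 in V+S-, beside 1.89% and 7.06% of all probes. In both clones, all 5 named genes of a fibroblast list (Acta2, Cd44, Col1a2, Postn and Vim) were also over 1.5-fold higher in V+S- than V-S+ cells, their ratios summing to 0.485 and 0.682 in V-S+ and to 1.44 and 2.18 in V+S-. Of a trophoblast list, 3 genes had a named probe, with sums of 2.82 and 3.02 in V-S+ and of 5.91 and 4.58 in V+S-. In V+S+ all 5 fibroblast and all 3 trophoblast genes were also above V-S+ in both clones, as were 39.7% of all probes, and 0 of the 8 passed 1.5-fold in both, beside 1.89% of all probes. Fgf5, a growth factor of the primed epiblast, was higher in V+S+ by 1.11 and 1.70 and in V+S- by 1.30 and 1.61. Hes5, a Notch target of neural progenitors, was lower in V+S- by -0.68 and -0.94, and the mesendoderm gene Gsc by -0.32 and -0.55. Every one of these named markers was well above background in all 4 fractions, and their part in the lower levels of the 5 genes was not tested. Names came from the study's list of genes that differed among these fractions, so these counts are no independent evidence of a direction.

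Other pluripotency genes were lower in V+S- and varied in their V+S+ level. Of 30 listed genes besides the 5, 7 had a named probe, and all 7 were lower in V+S- than V-S+ cells of both clones, as were 37.9% of all probes, with a median difference of -0.72 against 0.01 over all probes, a gap that the naming of genes from the study's list builds in. Over 1.5-fold lower in both clones was 1 of the 7, Mycn, a Myc-family transcription factor, at -0.74 and -0.86, beside 1.43% of all probes. In V+S+ against V-S+, 5 of the 7 were below 0 in both clones, as were 35.4% of all probes, and 0 of the 7 passed 1.5-fold in both, beside 0.434% of all probes. Prdm14, a repressor needed for naive pluripotency and germ cells, was lower by -0.37 in clone 5.1 and -1.15 in clone 16.1. Tdh, the threonine dehydrogenase of mouse ES cells, was lower by -0.29 and -1.74, so that clone 16.1 carried most of its mean. Dppa2, a chromatin protein of pluripotent cells, was lower by -0.32 and -0.95.

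Tdgf1, the Nodal co-receptor Cripto, was lowest in V+S- in both clones. It stood at 1.52 and 1.69 in V-S+ of clones 5.1 and 16.1, at 1.67 and 1.67 in V+S+, at 1.55 and 1.70 in V-S- and at 0.97 and 1.02 in V+S-. Both V+S- samples were below the 6 others, and V+S+ differed from V-S+ by 0.15 and -0.02. From V+S+ to V+S-, Tdgf1 was lower by -0.70 and -0.65, the only 1 of the 7 over 1.5-fold lower in both clones at that step, beside 0.244% of all probes. Gdf3, a TGF-beta family ligand whose gene ends 16336 bases before Stella on chromosome 6, was lower in V+S- than in V+S+ by -0.37 and -0.35. Its V+S+ level differed from V-S+ by 0.04 and -0.18.

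Of 25 listed germline genes, 12 had a named probe, and 10 of the 12 were lower in V+S+ than V-S+ cells of both clones, as were 35.4% of all probes, with a median of -0.62 over the 12 against 0.01 over all probes. These 12 too were named only because the study's list called them as differing, which builds in such a gap. Kit, the receptor tyrosine kinase of germ and blood stem cells, was lower in V+S+ by -0.59 and -1.54, and Obox6, an oocyte homeobox gene, by -0.90 and -1.61, and these 2 passed 1.5-fold in both clones, beside 0.434% of all probes. Tdrd12, a Tudor protein of the germline piRNA pathway, stood at 0.42 and 0.43 in V-S+, at -0.14 and -0.99 in V+S+ and at -0.52 and -1.01 in V+S-. In all 10 the V+S+ difference was larger in clone 16.1, and the share of all probes with such a difference between clones was not counted. The exceptions were Tdrd7, a Tudor protein also found outside the germline, at 0.53 and 0.80 above V-S+ in V+S+, and Spo11, the nuclease that starts meiotic recombination, at 0.11 and 0.27. In V+S- they stood above V-S+ by 1.42 and 1.41 for Tdrd7 and by 0.66 and 0.58 for Spo11. Between V+S+ and V+S- the median of the 12 was 0.02, the same as over all probes.

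Of 18 listed genes of the cluster, 8 had a named probe (Rhox2a, Rhox4a, Rhox4c, Rhox4d, Rhox4f, Rhox4g, Rhox6 and Rhox9), all within chrX:37244992-37901770. In both clones all 8 were lower in V+S+ than V-S+ cells, as were 35.4% of all probes, with a median of -0.81. Of the 8, 7 passed 1.5-fold in both, beside 0.434% of all probes. In both clones all 8 then exceeded their V+S+ level in V+S-, as did 40.8% of all probes, with a median of 0.30 against 0.02 over all probes and 0.72 for Rhox5. Of the 8, 0 passed 1.5-fold in both clones at that step, where no share of all probes is given for comparison. All 8 had been named through the study's list. In V-S-, 7 of the 8 exceeded their V-S+ level in both clones, as did 35% of all probes, with a median of 0.30. Rhox2a stood at -0.45 and -0.04 in V-S+, at -1.74 and -1.48 in V+S+ and at -1.06 and -1.26 in V+S-. The V+S+ difference was deeper in clone 16.1 for 3 of the 8 (Rhox2a, Rhox4a and Rhox4c) and deeper in clone 5.1 for the others. The Rhox4 genes are recent copies of each other, and their probes may read more than 1 of them.

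**Figure D5:**
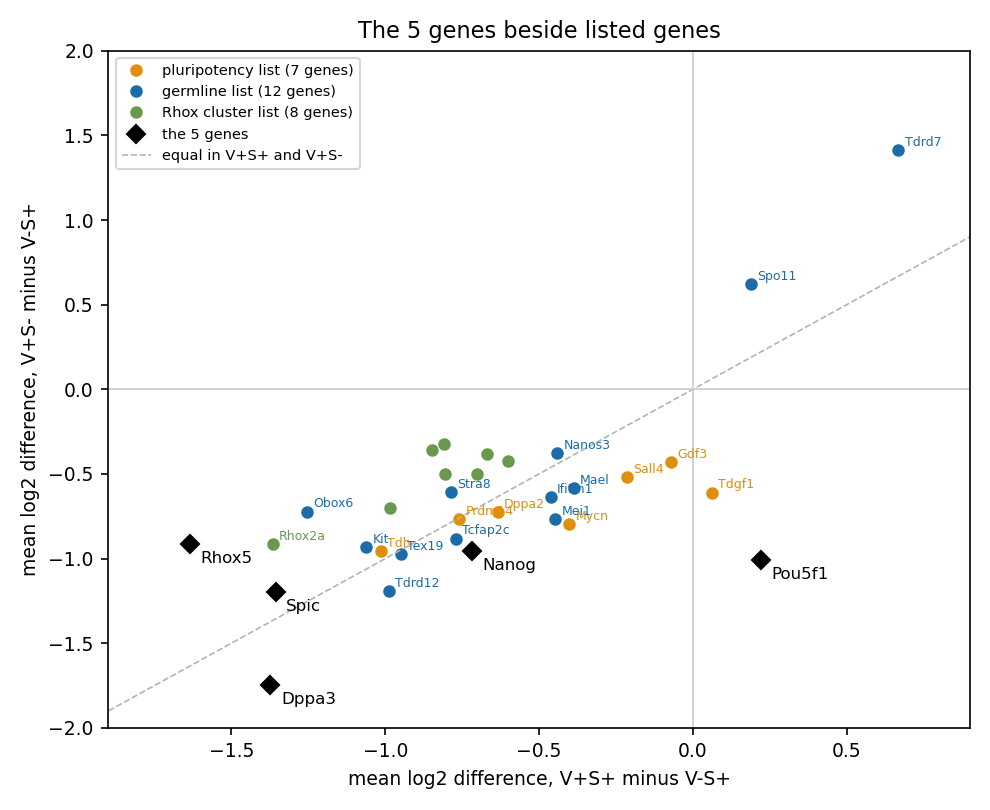
Mean log2 difference from V-S+ in V+S+ (horizontal axis) and in V+S- (vertical axis) for the 5 genes (black diamonds) and the named genes of the pluripotency, germline and Rhox lists; the dashed line marks equal levels in V+S+ and V+S-. Rhox genes lay above the line, while Oct4, Tdgf1 and Gdf3 lay below it and near or right of 0 on the horizontal axis.

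Across the 8 samples, the probes most like each gene were sought among the 1997 other named probes by Pearson's r of log2 Cy3/Cy5. These r values are a description over 8 samples that share 2 slides and 1 reference. Nanog was most like Reep6 (r = 0.998), Tdrd12 (r = 0.995) and Tnk2 (r = 0.993). Stella was most like Atp5g1 (r = 0.989), Tnk2 (r = 0.989) and 4930528F23Rik (r = 0.988), so Tnk2 was named for both. Rhox5 was most like Rpgrip1 (r = 0.994), Pnpla3 (r = 0.991) and S100a14 (r = 0.990). Spic was most like Ccno (r = 0.995), Oas1a (r = 0.995) and RP23-395H4.4 (r = 0.992). Oct4 had its best matches at lower values, with Mpst (r = 0.981), Mtss1 (r = 0.966) and Cdk5rap2 (r = 0.954). Among the 5 genes themselves, Nanog and Stella were most alike (r = 0.974), and Oct4 had r of 0.49 with Nanog, 0.50 with Stella, 0.17 with Spic and 0.06 with Rhox5.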

How the data were processed

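RNA from 8 samples (4 sorted fractions of 2 clones) was hybridised to two-colour Agilent arrays of 60-base probes. The authors scanned each array 2 times and deposited the scanner files, in which each spot has an intensity per channel from Agilent Feature Extraction 9.5.1.1. They also deposited a table of log10 values for 25164 spots, whose exact processing is not given in the sources used here. With each probe's mean removed, the table followed the processed Cy3/Cy5 ratios (r = 0.997, slope 0.994 over 25157 probes), while its centring is unknown.

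Mean intensities were background corrected (normexp, offset 50), normalised by loess within each array and expressed as log2 Cy3/Cy5. Control spots and spots with outlier flags were left out, and spots of a probe and both scans were averaged. Of 42006 probes, 29484 were tested, those well above background in every file of at least 1 fraction and with a value in every sample. Models were fitted with limma 3.58.1 in R 4.3.3 and p-values adjusted by Benjamini-Hochberg over all tested probes. Fractions were fitted without the clone, and the clone and its interactions were then added as terms. Probes were named only through the study's list, of which a truncated copy with 1998 probes was used, so listed genes in the rest of it stayed unnamed. Named besides the 5 genes and the listed genes were the 3 most alike probes of each gene.

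Between 28316 and 29671 probes per sample were well above background, the median spot was 2.36 to 2.87 times its background, and the scans of an array differed by an SD of 0.06 to 0.08 (log2). The small number of arrays limits the precision. Besides the clone, the labels name no separate cultures, so p-values measure only the spread between these samples, which may be technical. Samples of a clone deviated together, r being 0.59 to 0.81 across the 6 pairs of fractions, which come from the same line and slide. The fits were also tested on simulated data, from which nothing is read about these samples. The genes and the lists were chosen with earlier results of these data known.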

Additional observations from a re-analysis of the deposited data

Results flagged for a closer look

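The change of Rhox5 with Venus differed between the clones by an interaction of -0.69 on the log2 scale (limma adjusted p = 0.0128) in the main fit. Over the processing alternatives the limma adjusted p lay between 0.00489 and 0.258, so the call did not hold in every setting. The effects of clone and slide cannot be told apart. Oct4 in V-S- against V-S+ went in opposite directions in the clones, at -0.59 in clone 5.1 and 0.055 in clone 16.1. Spic in V+S- against V+S+ also did so, at -0.0285 in clone 5.1 and 0.34 in clone 16.1. The last 2 differences between clones rest on 1 sample per clone and fraction and were not tested by themselves.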

How the results depend on the processing

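With 2 samples per fraction, each difference rests on 2 values. Over 9 processing alternatives, every mean difference of the 5 genes in the 5 pairs of fractions kept its sign except that of Nanog in V-S- against V-S+. That was 0.04, and -0.19 once arrays were centred on the median without loess; this also took the median of all probes to -0.12 in that pair and to 0.13 in V+S- against V-S-. Leaving out 1 sample turned 4 further differences, that of Oct4 in V+S+ against V-S+ to -0.05 at the lowest, and in V+S- against V+S+ those of Nanog to 0.07, Stella to 0.03 and Spic to -0.02. These fits had no clone block, so leaving out a sample lets the clone difference into the fraction's mean. Within clones 5.1 and 16.1 these differences were 0.26 and 0.18 for Oct4, -0.42 and -0.06 for Nanog and -0.71 and -0.04 for Stella. Of the genes, the 5 called in some pair of fractions became 3 with processed signals and 2 with the authors' log10 values, and 0 to 5 on leaving out 1 sample, a count whose outcome the choice of genes had set. With clone as a replicate block all 5 were called, and the standard error of Rhox5 was 0.20 in place of 0.38. The genes with a mean over 1.5-fold lower in V+S- than in V+S+ numbered 1, and 1 or 2 on leaving out 1 sample; the second was Stella, without V+S+ of clone 16.1. Between clones, 0 genes were called, and 0 or 1 (Rhox5) on leaving out 1 sample. The 631 probes called between clones became 1354 with processed signals, and 399 to 857 on leaving out 1 sample. For the Venus interaction, 1 gene became 0 with processed signals and with the authors' values and 2 with median centring (Nanog, adjusted p = 0.0326), and 0 to 4 on leaving out 1 sample. The 1117 probes called there became 0 with processed signals and 0 with the authors' values, and 101 to 2021 on leaving out 1 sample. Leaving out either sample of a fraction gives the same clone terms, because the other sample then fixes that fraction's mean. The causes were not tested.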
